A study of Mus musculus with 2 samples.

Results

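The genes described here build and hold the acetylcholine receptor of the neuromuscular junction, the synapse between a motor nerve and a muscle fibre. They were chosen as the probes whose gene name is Chrna1, Chrnb1, Chrnd, Chrng, Chrne, Musk, Dok7, Lrp4, Rapsn or Colq, which gave 18 of the 56605 distinct probes that are not controls. All 10 genes had at least 1 probe well above background on both arrays, so they make up 10 of the 16993 genes measured on both. No member entered or left by its value.

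The KPC-exo culture was exposed for 24 h to 4 µg of exosomes (small vesicles shed by cells) from a mouse pancreatic cancer line. That line was grown from a tumour of a mouse with the alleles KrasLSL-G12D/+ and Trp53LSL-R172H/+ and the driver Pdx1-Cre. The MPDC-exo culture, the control, was given exosomes from murine pancreatic duct epithelial cells of an established line, with an exosome dose not given in the sources used here. Both cultures were C2C12, an established mouse myoblast line, differentiated into myotubes in horse serum with no nerve added per the protocols, and each was read on 1 one-colour array. As each group has a single array and no replicate, no test was run, and every difference below lies between 2 arrays.

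The muscle receptor is a ligand-gated ion channel of 5 subunits. Embryonic and denervated muscle carries alpha, beta, delta and gamma subunits, encoded by Chrna1, Chrnb1, Chrnd and Chrng, and in innervated adult muscle the epsilon subunit of Chrne takes the place of gamma. Nerve-derived agrin binds Lrp4, which activates the receptor kinase MuSK together with its cytoplasmic adaptor Dok7, and rapsyn, the product of Rapsn, clusters the receptors. Colq encodes the collagen tail that anchors acetylcholinesterase, the enzyme that ends the signal, in the synaptic cleft. Myotubes grown without nerve are known to express the embryonic subunits and to cluster receptors when agrin is added.

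Each probe on the array is a single strand of 60 bases. Probes of 1 gene are numbered here in the direction of the transcript, and positions are on mm9 as the files give them. A few sequences are shown because results below turn on them. Probe 1 of Chrng (chr1:89104811-89104870, plus strand) and probe 1 of Chrne (chr11:70431165-70431928, minus strand) lie upstream of the brighter probes of the embryonic and the adult subunit gene. The Chrne probe covers 764 bases of genome with its 60 bases, so it lies across a splice junction. Probe 3 of Lrp4 (chr2:91320967-91321026, plus strand) had the highest difference of the 17 measured probes.
Chrng probe 1: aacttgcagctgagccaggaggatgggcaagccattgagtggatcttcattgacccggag
Chrne probe 1: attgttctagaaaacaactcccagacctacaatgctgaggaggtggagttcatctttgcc
Lrp4 probe 3: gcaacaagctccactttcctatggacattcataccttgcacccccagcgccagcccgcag

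Promoters are shown for the receptor subunits that set the embryonic and adult forms, for the alpha subunit, and for the kinase. RefSeq promoters of GRCm38.p6 were given for 6 of the 10 members, with 7 entries, and the 250 bases before the start of each were searched on both strands. Capitals mark the E-box CANNTG, the kind of site that the myogenic factors MyoD and myogenin bind, and the N-box core CCGGAA, the kind of site that the ETS factor GABP binds. The form CAGCTG is counted within CANNTG. The lines give Chrna1 at chr2:73580339-73580588 (minus strand), Chrng at chr1:87205561-87205810 (plus strand), Chrne at chr11:70619195-70619444 (minus strand) and Musk at chr4:58285712-58285961 (plus strand).
Chrna1: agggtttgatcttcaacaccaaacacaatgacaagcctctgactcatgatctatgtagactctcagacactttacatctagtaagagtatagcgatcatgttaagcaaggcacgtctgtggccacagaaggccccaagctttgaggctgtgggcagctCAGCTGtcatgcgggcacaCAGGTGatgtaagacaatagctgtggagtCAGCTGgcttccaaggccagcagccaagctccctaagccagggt
Chrng: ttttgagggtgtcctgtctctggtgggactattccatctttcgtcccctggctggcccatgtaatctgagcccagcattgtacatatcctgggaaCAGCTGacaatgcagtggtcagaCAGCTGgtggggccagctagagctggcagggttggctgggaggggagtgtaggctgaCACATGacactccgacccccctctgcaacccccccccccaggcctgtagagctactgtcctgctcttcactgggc
Chrne: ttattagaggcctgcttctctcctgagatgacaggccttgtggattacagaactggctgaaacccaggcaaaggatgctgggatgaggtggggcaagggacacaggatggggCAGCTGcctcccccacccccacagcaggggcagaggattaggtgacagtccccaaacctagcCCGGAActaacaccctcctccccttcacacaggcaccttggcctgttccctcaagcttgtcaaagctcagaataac
Musk: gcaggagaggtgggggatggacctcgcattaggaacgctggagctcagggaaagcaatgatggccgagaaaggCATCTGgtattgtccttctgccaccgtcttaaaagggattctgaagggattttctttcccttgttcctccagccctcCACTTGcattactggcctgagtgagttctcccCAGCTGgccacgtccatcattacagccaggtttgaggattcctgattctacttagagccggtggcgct

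Chrna1, Chrng and Musk each held 3 matches to CANNTG, of which 2, 2 and 1 read CAGCTG. The Chrne promoter held 1 CANNTG, also in the form CAGCTG, and was the 1 member promoter with CCGGAA, which began 76 bases before the start. Chrnb1 held 3 CANNTG matches and no CAGCTG. One of the 2 Dok7 entries held 1 CANNTG and the other held 0. Of all 32851 promoters in the table, 66.2% held CANNTG in the same window, 13% held CAGCTG and 12% held CCGGAA. These matches describe letters and show no binding.

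None of the 10 members differed by 1.5-fold between the arrays. The 10 differences ran from -0.27 for Musk to 0.25 for Chrna1 on the log2 scale, as KPC-exo minus MPDC-exo, so no gene was more than 1.21-fold apart. Among all 16993 measured genes, 3.73% were 1.5-fold or more higher in KPC-exo myotubes and 3.7% were 1.5-fold or more lower. The median of the members was -0.01, beside 0.06 for all measured genes. Of the members, 3 lay above the median of all genes and 7 below it. A share of 0 of 10 lies near these background shares, so the count does not set the members apart from other genes.

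The KPC-exo array was the brighter one, with a 75th percentile of 639 signal units, against 380 on the MPDC-exo array. Each level was therefore taken as log2 of the signal minus log2 of that percentile, and differences are between these centred levels. Across measured genes the levels of the arrays correlated at r = 0.99, with genes that are not independent replicates. For probes spotted 10 times, the repeats on 1 array had a median SD of 0.03 in log2 signal. Different probes of 1 gene had a pooled SD of 0.36 in their difference over 5736 genes with at least 2 measured probes. The scanner software also gives an error for each spot, which for most member probes comes to 0.20 to 0.22 on the log2 difference. None of these includes the spread between cultures. All 10 myotube markers were measured on both arrays, with a median difference of -0.13 and 0 genes 1.5-fold apart. Of these markers, 4 lay above the median of all genes and 6 below it. In a whole culture, a change in the number of myotubes and a change in RNA per myotube cannot be told apart.

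**Figure D1:**
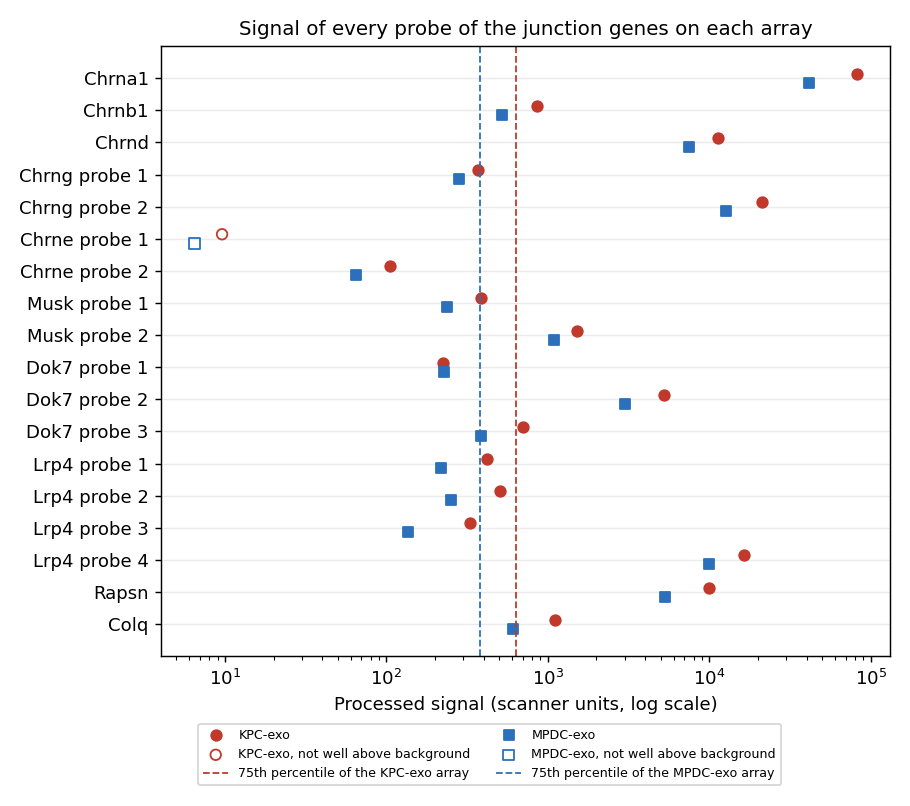
Processed signal in scanner units on a log axis for all 18 probes of the 10 genes, with KPC-exo as circles and MPDC-exo as squares, and the 75th percentile of each array as a dashed line. The KPC-exo point lies right of the MPDC-exo point at every probe but probe 1 of Dok7, as the percentiles of 639 and 380 do, and probe 1 of Chrne is on neither array well above background.

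Among the receptor subunits, the alpha subunit gene had the highest difference and the delta subunit gene the lowest. Measured from the median of all genes, Chrna1 lay at 0.19 and Chrnd at -0.20, so neither stood out from the other. Chrna1, whose product carries the main part of the acetylcholine binding sites, had a signal of 82569 units on the KPC-exo array and 41339 units on the MPDC-exo array at its 1 probe (chr2:73404112-73404171). Its centred log2 level was 7.01 in KPC-exo and 6.76 in MPDC-exo myotubes, a difference of 0.25 with a scanner error of 0.20. Of all measured genes, 36.4% lay at least as far from 0. The background around this spot was marked as irregular on the KPC-exo array, so Chrna1 has no value where such spots are left out.

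Chrnb1, the beta subunit gene, had 853 units on the KPC-exo array and 518 units on the MPDC-exo array, a difference of -0.03 in log2 level. Its probe spans a splice junction within chr11:69598674-69599242. Chrnd, the delta subunit gene, had 11367 units on the KPC-exo array and 7460 units on the MPDC-exo array, or centred log2 levels of 4.15 and 4.29. Its difference of -0.14 was smaller than its scanner error of 0.20. Chrnd and Chrng are next to each other in the RefSeq annotation, and their differences of -0.14 and -0.0014 lay within that error of each other.

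The embryonic gamma subunit was well above background at both of its probes on both arrays, and the adult epsilon subunit at 1 of its 2 probes. Chrng probe 2 (chr1:89108141-89108200), its brighter probe, had 21228 units on the KPC-exo array and 12656 units on the MPDC-exo array. The centred log2 levels were 5.05 in KPC-exo and 5.06 in MPDC-exo myotubes, a difference of -0.0014, and 99.7% of measured genes lay at least as far from 0. Probe 1 of Chrng, printed above, had 371 units on the KPC-exo array and 282 units on the MPDC-exo array, a log2 difference of -0.35 with a scanner error of 0.21. The 2 probes of this gene thus lay 0.35 apart. The pooled SD of 0.36 given above is for single probes around the mean of their gene, not for the gap between 2 probes.

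Chrne probe 2 (chr11:70428391-70428450) had 105 units on the KPC-exo array and 64.5 units on the MPDC-exo array, or centred log2 levels of -2.60 and -2.56. Its difference was -0.04 with a scanner error of 0.28. The junction probe of Chrne printed above gave only the substitute value that the software sets for spots near background, 9.60 units on the KPC-exo array and 6.49 units on the MPDC-exo array, and has no usable difference. Another RefSeq gene, 4930544D05Rik, overlaps Chrne. Signals of different probes depend on the probe, so the gamma and epsilon signals give no ratio of the subunits. What can be compared is how each moved between the arrays: the Chrng difference minus the Chrne difference was 0.04 with a scanner error of 0.35. It was 0.25 with normexp background correction and -0.13 with the mean over probes, so neither size nor sign of a shift between the embryonic and the adult subunit was resolved.

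**Figure D2:**
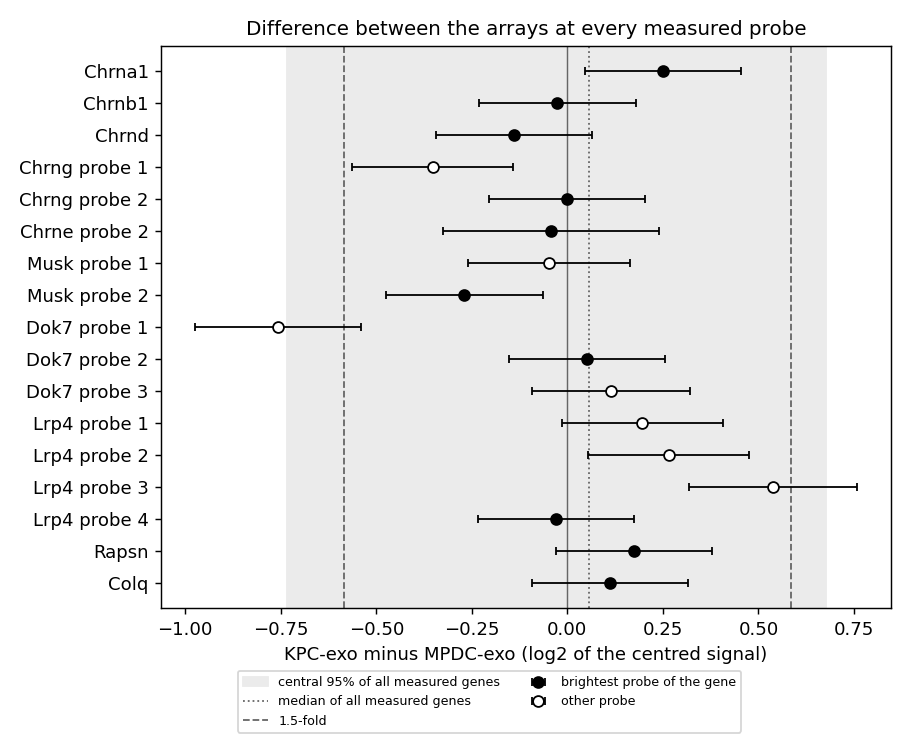
Log2 difference, KPC-exo minus MPDC-exo, at each of the 17 probes well above background on both arrays, with the scanner software's error as bars. Filled points are the brightest probe of each gene and stay between -0.27 and 0.25. Probe 1 of Dok7 at -0.76 is the 1 point past the dashed 1.5-fold lines and lies outside the grey central 95% of all measured genes, which runs from -0.73 to 0.68.

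In the agrin pathway the kinase gene had the lowest difference of the members. Musk probe 2 (chr4:58387070-58387129), assigned to transcript variant 1, had 1524 units on the KPC-exo array and 1094 units on the MPDC-exo array. The centred log2 levels were 1.26 in KPC-exo and 1.52 in MPDC-exo myotubes, a difference of -0.27 with a scanner error of 0.20. Of all measured genes, 33.1% lay at least as far from 0. Musk probe 1 (chr4:58368880-58368939), assigned to transcript variant 6, had 386 units on the KPC-exo array and 237 units on the MPDC-exo array and a difference of -0.05. Both probes lay below 0, and 1 of them was further from 0 than its scanner error.

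Lrp4, the agrin receptor, had 4 probes that did not move alike. Probe 4 (chr2:91353832-91353891), the brightest, had 16322 units on the KPC-exo array and 9919 units on the MPDC-exo array, with a difference of -0.03. Probe 3, printed above, had 330 units on the KPC-exo array and 135 units on the MPDC-exo array, a log2 difference of 0.54 with a scanner error of 0.22. Its fold of 1.45 was just inside the 1.5-fold threshold, and 8.87% of measured genes lay at least as far from 0. Probes 1 and 2 (chr2:91318940-91318999 and chr2:91319341-91319400), both assigned to transcript variant 2, had differences of 0.20 and 0.26. Probe 1 had 421 units on the KPC-exo array and 219 units on the MPDC-exo array. Probe 2 had 505 units on the KPC-exo array and 250 units on the MPDC-exo array. The 3 upstream probes therefore lay higher on the KPC-exo array and the downstream probe near 0. Probes 3 and 4 are both assigned to transcript variant 1, so the values do not divide by variant. Probe 1 was within its scanner error of 0.21, and probe 3 had 0.31 with normexp. With the mean over probes the difference of Lrp4 was 0.24.

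Dok7, the adaptor that activates MuSK from inside the cell, held the 1 member probe past 1.5-fold. Its probe 1 (chr5:35422363-35422422) had 225 units on the KPC-exo array and 227 units on the MPDC-exo array, which after centring was 1.69-fold lower in KPC-exo myotubes. The log2 difference was -0.76 with a scanner error of 0.22, and 4.14% of measured genes lay at least as far from 0. Probe 2 (chr5:35423495-35423554), the brightest, had 5224 units on the KPC-exo array and 3004 units on the MPDC-exo array, a difference of 0.05. Probe 3 (chr5:35430382-35430441) had 700 units on the KPC-exo array and 386 units on the MPDC-exo array, a difference of 0.11. The value of probe 1 was thus not shared by the other probes of the gene, and lay 0.87 below the highest of them. It was below 0 in all 11 alternatives other than spike-in centring, which set it at 0.24.

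Rapsn, which encodes the receptor-clustering protein rapsyn, had 10016 units on the KPC-exo array and 5287 units on the MPDC-exo array. Its difference of 0.17 was within the scanner error of 0.20, at a junction probe within chr2:90885183-90885648. Colq had 1110 units on the KPC-exo array and 612 units on the MPDC-exo array at chr14:32336270-32336329, a difference of 0.11. Both lay slightly higher on the KPC-exo array, by less than their scanner error. Of the 10 members at their brightest probe, Chrna1 and Musk were further from 0 than that error. Chrna1 was inside it with median centring, at 0.1975 against an error of 0.204. Some dimmer probes of Chrng, Lrp4 and Dok7 were also further from 0 than their own errors.

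**Figure D3:**
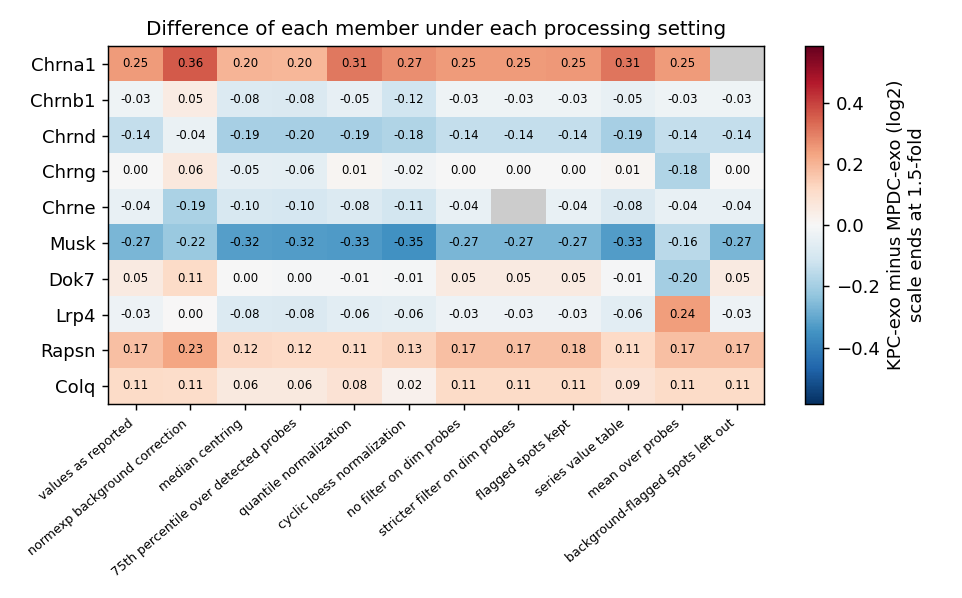
Log2 difference, KPC-exo minus MPDC-exo, of each member (rows) under each processing setting but spike-in centring (columns), coloured on a scale that ends at 1.5-fold, with grey where a setting leaves no value. Chrna1, Rapsn and Colq stay above 0 and Chrnd, Chrne and Musk below 0 wherever they have a value, and the row of Chrna1 reaches 0.36.

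Chrna1, Rapsn and Colq lay above 0, and Chrnd, Chrne and Musk below it, in each alternative that gave them a value other than spike-in centring. The sign of Chrnb1, Chrng, Dok7 and Lrp4 differed among these alternatives. Centring on 7 spike-in probes put the median of all genes at 1.06 and that of the members at 0.98. It shifts all genes together, so it could not change the distance of -0.07 between the members and all genes. Among the other alternatives that distance ran from -0.08 with background-flagged spots left out to 0.13 without a filter on dim probes. With normexp it was 0.0016.

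Lists of genes that act with the members at the synapse are described by their counts, to be read beside the shares of 3.73% higher and 3.7% lower among all measured genes. Of 19 partners of agrin and MuSK signalling, all were measured, 1 was 1.5-fold higher, 1 was 1.5-fold lower, and the median was 0.06. Agrn, which encodes agrin itself, had a difference of -0.04. Apc, which links receptor clusters to microtubules, was 1.55-fold lower at 1 dim probe, with a difference of -0.63 that was -0.50 with normexp. The adaptor gene Crk, whose product binds Dok7, was 1.54-fold higher at its brightest probe, while its other measured probe had -0.16, and it had 0.08 with normexp. That brightest probe was dim too, with log2 levels of -2.35 in KPC-exo and -2.98 in MPDC-exo myotubes. Dvl1, a scaffold of Wnt signalling that binds MuSK, had 0.33.

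The neuregulin and synaptic transcription list had 11 measured genes, 0 of them 1.5-fold apart and a median of 0.07. Erbb3, a neuregulin receptor, had a difference of 0.35 and the ETS factor gene Etv4 had 0.17. Nrg1 had 0.21, with 5 measured probes from -0.32 to 0.53. Gabpa, which encodes the DNA-binding subunit of the factor that reads the N-box, had 0.07 at its brightest probe and -0.55 at its lowest.

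Of 16 genes of activity-dependent transcription, through which nerve activity restrains receptor genes in muscle, 13 were measured, 0 were 1.5-fold higher, 2 were 1.5-fold lower, and the median was -0.09, beside 3.7% lower and a median of 0.06 among all measured genes. Neither of the 2 was 1.5-fold lower with normexp. Myog had log2 levels of 5.59 in KPC-exo and 5.75 in MPDC-exo myotubes, a difference of -0.16, and Myod1 had -0.09. These encode the myogenic factors that bind E-boxes of the kind marked above. Hdac9, a repressor of Mef2-dependent genes, was 1.56-fold lower with a difference of -0.64, and its other measured probe had -0.24. It had -0.54 with normexp and -0.44 with the mean over probes. Camk2a, a calcium-dependent kinase, was 1.55-fold lower with -0.63 at its 1 measured probe, or -0.53 with normexp, and no value where background-flagged spots were left out. Hdac4, a deacetylase that represses Mef2 targets and mediates the response to denervation, had 0.41, with 3 measured probes from -0.15 to 0.41. Camk2d had -0.07 at the brightest of 4 measured probes and 1.44 at the highest, so the counts of this list depend on the probe taken. On the KPC-exo array alone, Myf6 was well above background, at a signal that gives no bound above 1.

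Acetylcholinesterase itself was at the limit of detection. On the KPC-exo array alone, Ache was well above background, at 1 of its 2 probes. It was 1.11-fold above the dimmest signal that counted as detected on the MPDC-exo array, a bound that allows for no spot error. The share of all genes detected on 1 array only was not counted. On the brighter KPC-exo array 47.6% of probes were well above background, and on the MPDC-exo array 45.9%. Of the other 4 genes of the enzyme and its anchors, 3 were measured. Dag1, which encodes dystroglycan, had -0.34. Bche, which encodes butyrylcholinesterase, had -0.15 at a dim probe. Hspg2, which encodes the basal lamina proteoglycan perlecan that binds Colq, had 0.31 at its brightest probe and -0.14 at its other. Prima1 was on neither array well above background.

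The postsynaptic scaffold and basal lamina list had 16 measured genes of 18, with 1 gene 1.5-fold higher, 0 lower and a median of 0.14, which was -0.11 with normexp and -0.08 with background-flagged spots left out. Plec, which encodes the cytoskeletal linker plectin, was 1.54-fold higher at 1 probe, with a difference of 0.62, and had 0.0042 at the other. The brighter probe had a spot marked for irregular background, and without such spots the difference of Plec was 0.0036. Sntb2, a syntrophin gene, had -0.55 and Dtnb, which encodes beta-dystrobrevin, had 0.39. Utrn, which encodes the synaptic dystrophin relative utrophin, had -0.26 at the brightest of 5 measured probes and 0.40 at the highest. Dtna had 0.17 at the brightest of 4 measured probes, -1.26 at the lowest and 0.54 at the highest.

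**Figure D4:**
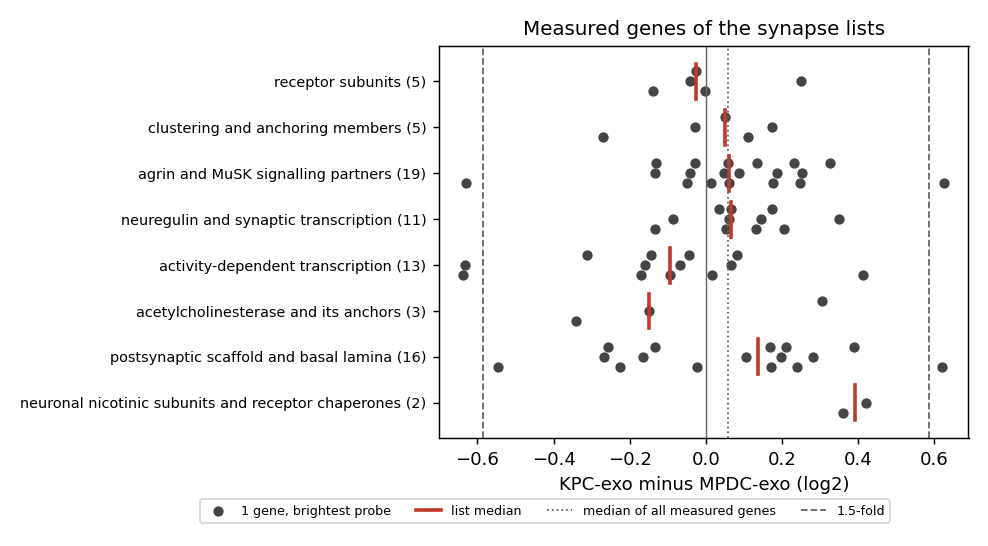
Log2 difference, KPC-exo minus MPDC-exo, of each measured gene (points, brightest probe) in the receptor subunits, the other members and 6 lists of synapse genes, with the number of measured genes in brackets and the list median as a red line. The points of the members lie inside the dashed 1.5-fold lines, and the points outside are Apc, Crk, Hdac9, Camk2a and Plec.

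Receptors of other types were mostly below detection. Of 15 genes on the array for neuronal nicotinic subunits and receptor chaperones, 12 were on neither array well above background. Chrna2 had log2 levels of -2.34 in KPC-exo and -2.76 in MPDC-exo myotubes, a difference of 0.42 that was 0.02 with normexp. Lynx1, which encodes a membrane-tethered modulator of nicotinic receptors, had 0.36 and 0.81 at its 2 probes. On the KPC-exo array alone, the chaperone gene Ric3 was well above background, at least 1.02-fold higher. Of 5 muscarinic receptor genes, 4 were on neither array well above background, and Chrm1 was so in KPC-exo myotubes alone, at least 1.28-fold higher. Both bounds are near 1 and allow for no spot error.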

How the data were processed

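RNA of 1 KPC-exo and 1 MPDC-exo culture was read on 1-colour Cy3 arrays, and groups follow the labels. Per the submitters' processing notes and the file headers, Agilent Feature Extraction 10.7.1.1 subtracted the background, removed spatial trends and set small values to a surrogate. The deposited scanner files hold intensity per spot, not normalized between arrays. The deposited series table holds log2 values whose making the sources used here do not give. They correlated with the log2 scanner values at 1.00, have medians of 4.89 on both arrays, and served as an alternative.

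Spots flagged as non-uniform or population outliers were left out (166 on the KPC-exo array, 102 on the MPDC-exo array), spots of a probe were averaged as log2, and the 75th percentile of each array was subtracted. A gene is its brightest probe among those well above background on both arrays (47.6% of probes on the KPC-exo array and 45.9% on the MPDC-exo array). The number of arrays limits the precision. The scanner error of a difference combines the errors the software gives for both spots. Names followed RefSeq accessions for 32994 probes, which changed 1535 names. Sequences are from the scanner files and RefSeq.

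No test was run. Members and lists were chosen with earlier results of these data known. Named genes are the members, the 3 measured genes of each list with the largest difference, those detected on 1 array only, and Ache, Agrn, Myog and Myod1. Some Schwann cell markers, and the summary of their list, are not reported here. Gabpa, Utrn, Prima1, Camk2d and Dtna were named after their values were seen. Outside that rule, Slc18a3, Slc5a7, Sox10, S100b, Krt8, Krt18 and Epcam are named as examples of markers on neither array well above background. The 12 alternatives of processing changed background correction, centring, normalization, filters, flags, the source of the values and the summary over probes, and the threshold was also set at 1.25-fold and 2-fold. Only the centring and the difference between arrays were tried on simulated data, with noise set smaller than the scanner error. The choice of the brightest probe, the filters, the flags and the alternatives were not tried there. Python 3.11.15, numpy 2.4.6, pandas 2.3.3, matplotlib 3.10.9, R 4.3.3 and limma 3.58.1 were used.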

Additional observations from a re-analysis of the deposited data

How the results depend on the processing

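Among the 12 alternatives of processing and 2 of the threshold, the count of members 1.5-fold apart changed in 1. Spike-in centring, which shifts all genes together, put 10 members at least 1.5-fold higher, with a median of 0.98 for the members and 1.06 for all genes. It also turned the differences of Apc, Camk2a, Chat and Hdac9, the named genes that were 1.5-fold lower, to 0.37, 0.37, 0.056 and 0.36. Named genes less far below 0 turned above 0 as well, such as Sntb2 at 0.45 and Myog at 0.84. Without a filter on dim probes the median of all genes was -0.15. The Chrng difference minus the Chrne difference was 0.25 with normexp background correction and -0.13 with the mean over probes, and had no value under the stricter filter, which leaves Chrne out. Leaving out background-flagged spots, chosen after seeing the data, removes Chrna1, Camk2a, Dvl1 and Myod1 and puts Plec at 0.0036. The causes were not tested. No paired analysis was possible because each group has 1 array. Low signal limits Chrne, Ache, Apc, Hdac9, Crk and Bche among others, and no setting adds the missing spread between cultures.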

Other observations

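Markers of the other cell types of a junction, and of the tissue the exosomes came from, were mostly at background in these cultures. Of 10 motor neuron markers, 7 were on neither array well above background, among them Slc18a3 and Slc5a7, which encode the vesicular acetylcholine transporter and the choline transporter. Chat, which encodes the enzyme that makes acetylcholine, had log2 levels of -2.95 in KPC-exo and -2.01 in MPDC-exo myotubes, and was 1.92-fold lower at the brighter of 2 measured probes among 6 on the array. Its other measured probe had a difference of -0.20, and the difference of -0.94 was -0.62 with normexp and -0.57 with the mean over probes. Isl2 had 0.32 and Snap25 -0.05.

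Of the Schwann cell markers, Sox10 and S100b were on neither array well above background. Mbp had a difference of 0.23, which was 0.0082 with normexp. The receptor gene Erbb3, which marks these cells too and stands in the neuregulin list, had 0.35. Of 10 markers of pancreatic epithelium, Krt19, Sox9 and Cldn7 were measured, with differences of 0.13, -0.15 and -0.01. With normexp the differences of Krt19, Sox9 and Cldn7 were -0.08, -0.16 and -0.21. Krt8, Krt18 and Epcam were among the 7 that were on neither array well above background. Among the myotube markers the 3 largest differences were -0.43 for Ckm, -0.41 for Des and 0.34 for Tnnt3. What part such cells or vesicle RNA have in any value here was not tested.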
